A study of Mus musculus with 12 samples.

Results

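The miR-130/miR-301 family is a group of microRNAs (miRNAs) that share 1 seed, the short stretch at the 5′ end by which a miRNA recognises its targets. Here it was followed through rapamycin treatment and rapamycin resistance in the mouse line BC3H1, which comes from a brain tumour and has muscle-like features. All array probes named for a mouse miR-130 or miR-301 with any letter, passenger strands left out, were taken as members, which gave 3 probes (mmu-miR-130a, mmu-miR-130b and mmu-miR-301a, written below without the species prefix) of 417 mouse miRNA probes tested. No probe for mouse miR-301b was analysed here. The family was picked with its log2 ratios in the resistant line already known to be higher, so its values in both comparisons with that line are given as a description: no p-value is printed for them, and nothing is read from whether they pass a threshold. The comparison of 24 h of rapamycin with DMSO was not used for the choice and is tested.

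Total RNA was measured on 12 Exiqon miRCURY LNA arrays (v10.0) with 2 colours, the sample in Hy3 and a common pool in Hy5, with no dye swap. The 3 groups had 4 arrays each. RS_DMSO were rapamycin-sensitive BC3H1 cells given DMSO, the drug's solvent, for 24 h. RS_Rap were the same sensitive cells after 24 h in 100 nM rapamycin. RR_Rap were the resistant line RR1, derived from BC3H1 by 6 months in 1 µM rapamycin and still kept in that dose, so drug dose, length of exposure and derivation of the line differed together between RR_Rap and RS_Rap. RR1 is 1 line, and the sources used here do not say whether it is a clone. They also do not say whether the 4 samples of a group were separate cultures, so a p-value here covers the spread among those samples and that spread may be technical. By one label the pool mixed the 3 conditions equally, and by another it held 9 samples, although there are 12 arrays; which is right was not settled.

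Rapamycin inhibits mTORC1, a kinase complex that couples growth factor and nutrient signals to cell growth. Members of the family repress the fat-cell regulator PPARG (miR-130a and miR-130b), the antiangiogenic homeobox genes MEOX2 and HOXA5 in human endothelial cells (miR-130a) and the stress-response gene TP53INP1 in human cells (miR-130b). A miRNA hairpin gives a guide strand, which is loaded into the silencing complex, and a passenger strand, written with an asterisk, which is mostly lost.

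The mature sequences, from RefSeq on GRCm38.p6, are shown because the members are a family through their seed; capitals mark the seed, bases 2 to 8 from the 5′ end.
miR-130a: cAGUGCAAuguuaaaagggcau
miR-130b: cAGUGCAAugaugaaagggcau
miR-301a: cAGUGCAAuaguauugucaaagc
All 3 begin with the same 9 bases. Counted from the 5′ end, miR-130a and miR-130b differ at 2 of 22 bases (U11A and A13G). Over its first 22 bases miR-301a is identical to miR-130a at 12 and to miR-130b at 11. How far the probes for miR-130a and miR-130b bind each other's target was not tested, and the probe sequences were not used here. Of 1738 mature mouse miRNAs in the RefSeq table, 7 have this seed. miR-301b is not among those 7, and its mature sequence was not examined here, so nothing is said of its seed. Among the array miRNAs whose sequences were looked up, 4 have the seed, the fourth being miR-721.

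The members come from 3 chromosomes. miR-130a is encoded at chr2:84741116-84741137 on the minus strand, between the genes Ypel4 and Gm19426 and inside neither. miR-130b lies at chr16:17124071-17124092 on the minus strand, within the bounds of 2610318N02Rik, and its hairpin is 257 bases from that of miR-301b. miR-301a lies at chr11:87113054-87113076 on the plus strand, within the bounds of Ska2, a gene needed for chromosome segregation. Whether these places are exonic or intronic was not read from the annotation used here.

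The 3 members differed in how far their signals stood above the arrays' 7 negative-control probes, so they are not equally well measured. miR-130a was at 2.84 to 14.3 times the highest negative control on the 12 arrays and miR-301a at 1.05 to 4.07 times. Both lowest values are from RS_DMSO 3, where that control was high at 304.5 scanner units. The next lowest, on RR_Rap 2, were 3.55 for miR-130a and 1.62 for miR-301a. miR-130b lay below the highest negative control on all 8 arrays of sensitive cells and above it on the 4 arrays of the resistant line, at 1.02 to 1.44 times. miR-130b therefore counts as measured above the controls only through the group in which it is high. Its Hy3 spot signal before background subtraction was 120 to 132.7 scanner units in RS_DMSO, 108 to 119 in RS_Rap and 134 to 189 in RR_Rap, 3 ranges that do not overlap but lie close together. Both low ends in RR_Rap, 1.02 times and 134 units, are array 2, with 187 to 189 units on the other RR_Rap arrays. Its Hy5 pool signal, 90.8 to 135, was little above the local Hy5 background of 77 to 104. The scanner software marked almost every spot on every array as well above background, so its flag separates nothing here. miR-130a signals in Hy3 were 854 to 1313 in RS_DMSO, 1615 to 1805 in RS_Rap and 487 to 1826 in RR_Rap, and the low value of the last group is array 2, whose pool signal at this probe was also low at 577. miR-301a signals were 289 to 350 in RS_DMSO, 355 to 435 in RS_Rap and 213.7 to 532 in RR_Rap, again with array 2 lowest.

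**Figure D1:**
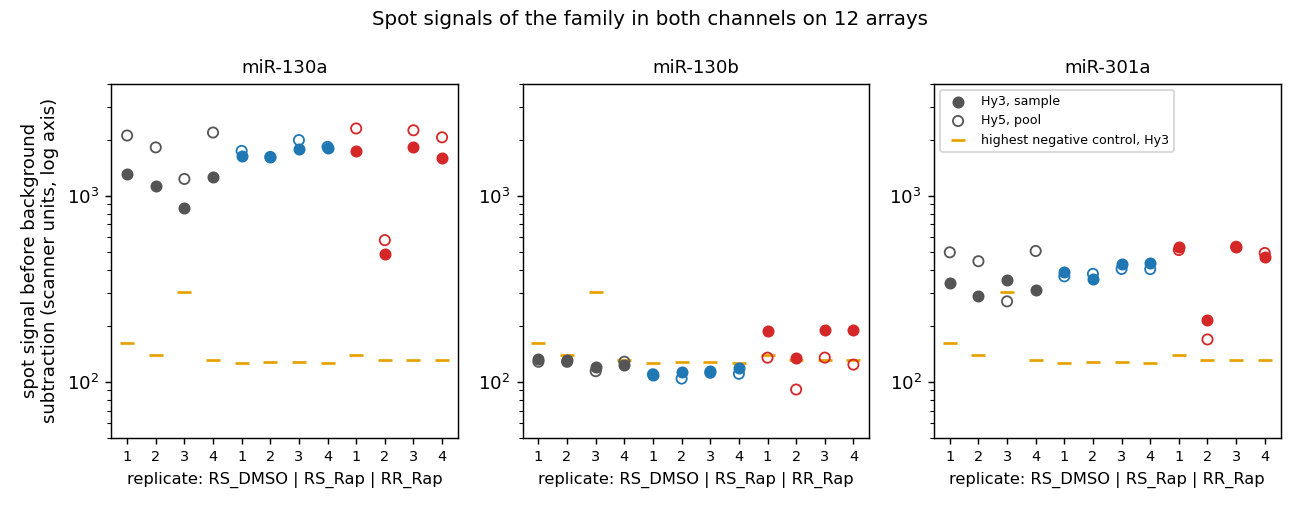
Spot signal before background subtraction (scanner units, log axis) of each member on each of the 12 arrays, filled for the Hy3 sample and open for the Hy5 pool, with the highest Hy3 negative control of that array as a gold dash. miR-130a and miR-301a lie above the dash on all 12 arrays, whereas miR-130b lies above it on the 4 RR_Rap arrays and below it on the other 8. RR_Rap 2 is the dimmest RR_Rap array at every member.

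Over all spots the median signal per array was 107 to 141.5 in Hy3 and 70 to 98 in Hy5, and on each array between 131 and 229 mouse probes exceeded the highest negative control. RS_DMSO 3 stood apart from its group, with correlations across probes of 0.574 to 0.709 with the other RS_DMSO arrays and an estimated array weight of 0.15. Results that rest on it are given with and without it. The groups were scanned one after the other, RS_Rap at positions 1 to 4, RS_DMSO at 5 to 8 and RR_Rap at 9 to 12, so scan position and group cannot be told apart.

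Set against DMSO-treated sensitive cells, the resistant line had higher ratios of all 3 members. After loess, which removes from each array the trend of the ratio with spot brightness, the log2 ratio of miR-130b to the pool was -0.63, -0.39, -0.56 and -0.50 on the RS_DMSO arrays and 0.35, 0.07, 0.46 and 0.45 on the RR_Rap arrays. All 4 resistant arrays lay above all 4 DMSO arrays, and array 2 was the lowest of the resistant group. The means were -0.52 ± 0.10 and 0.33 ± 0.18 (SD, n = 4), a difference of 0.85 ± 0.08 (standard error of the fit). No fold is given, because the DMSO arrays lay below the negative controls at this probe. The size of this difference depends on how the weak signal is treated: it was 1.26 with a normexp offset of 10 in place of 50 and 1.69 with the scanner's processed signals, both without loss of direction.

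For miR-301a the log2 ratios were -0.48, -0.35, -0.12 and -0.48 in RS_DMSO and 0.31, 0.35, 0.24 and 0.13 in RR_Rap. The groups did not overlap, and the DMSO array nearest to the resistant ones was RS_DMSO 3. The 4 spots of that array disagreed, at -0.99 to 0.45, while on the other 11 arrays the SD between spots of this probe was at most 0.20. The means were -0.36 ± 0.17 and 0.26 ± 0.10 (SD, n = 4), a difference of 0.61 ± 0.09 or 1.53-fold, and 0.69 without RS_DMSO 3.

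miR-130a differed least. Its log2 ratios were -0.39, -0.23, -0.29 and -0.39 in RS_DMSO and -0.01, 0.06, 0.01 and -0.06 in RR_Rap. Again the groups did not overlap, and every resistant array lay close to its own loess trend. Lying close to that trend does not give the level against the pool. Before loess the resistant arrays stood at -0.40 to -0.25, on a scale that is not centred either. The difference between the means after loess, -0.32 ± 0.08 and -0.00097 ± 0.05 (SD, n = 4), was 0.32 ± 0.05 or 1.25-fold. All 3 members passed the threshold of an adjusted p of 0.05 upward, as did 12.9% of all probes tested (10.3% passed downward and 23.3% in either direction). All 3 had higher groups that did not overlap, as did 14.1% of all probes (25.4% in either direction). Since the family was picked on this contrast, these counts carry no evidence of their own. The median difference of the 3 members was 0.61, against -0.01 over all probes.

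Set against sensitive cells after 24 h of rapamycin, the same RR_Rap arrays again had higher ratios of all 3 members after loess, although the direction of miR-130a turned when loess was left out. This comparison shares the resistant arrays with the one before. miR-130b stood at -0.72, -0.63, -0.64 and -0.62 on the RS_Rap arrays, the lowest and tightest values of any group for this probe. Its difference, from a mean of -0.65 ± 0.04 (SD, n = 4), was 0.98 ± 0.08, again against arrays below the negative controls. With an offset of 10 it was 1.51 and with the processed signals 2.00. miR-301a stood at -0.28, -0.46, -0.14 and -0.24 in RS_Rap, with a mean of -0.28 ± 0.14 and a difference of 0.54 ± 0.09 or 1.45-fold. miR-130a stood at -0.40, -0.29, -0.45 and -0.40, with a mean of -0.39 ± 0.07 and a difference of 0.39 ± 0.05 or 1.31-fold, which turned to -0.27 without loess. For each member the highest RS_Rap array lay below the lowest RR_Rap array. All 3 passed the threshold upward, as did 15.1% of all probes (13.7% passed downward and 28.8% in either direction). All 3 had higher groups without overlap, as did 21.3% of all probes (39.8% in either direction), and nothing is read from these counts either. The median difference of the members was 0.54, against 0.03 over all probes.

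**Figure D2:**
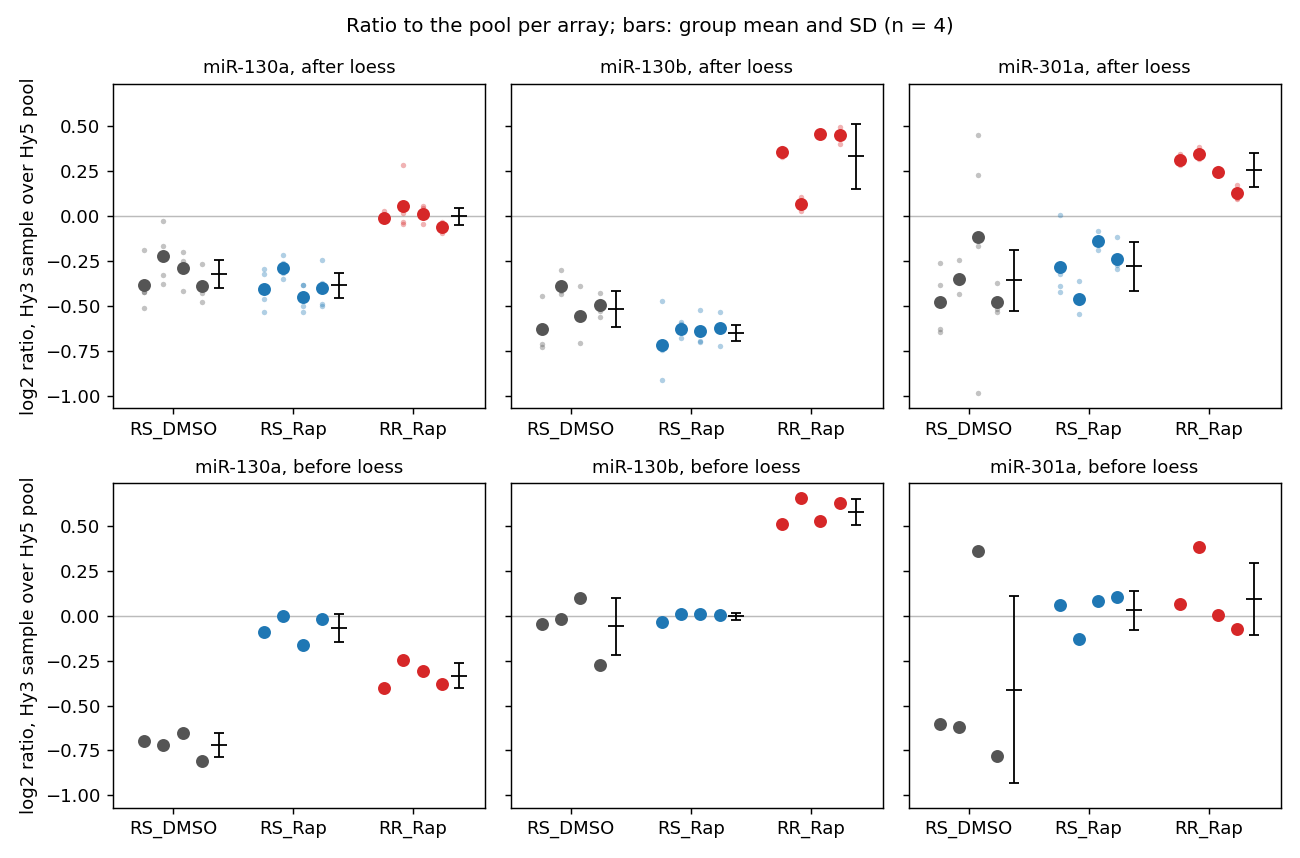
Log2 ratio of the Hy3 sample to the Hy5 pool for each member on each array (large points), with its spots (small points, upper row), after loess in the upper row and before loess in the lower row; bars give the group mean and SD (n = 4). After loess the 4 RR_Rap arrays lie above all 8 arrays of sensitive cells for each member, whereas before loess the RS_Rap arrays of miR-130a lie above the RR_Rap arrays and those of miR-301a overlap them.

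The comparison of 24 h of rapamycin with DMSO asks whether a short exposure of sensitive cells moves the family. Of the 3 members, 0 passed limma's adjusted threshold, 0 had an unadjusted p under 0.05 and 0 passed with an unmoderated test. miR-130b lay below the negative controls on all 8 arrays compared here, so a change in it may not have been detectable at this signal. Over all probes 3.36% passed (14 of 417), 1.68% as higher and 1.68% as lower. For each member the groups overlapped, while 14.9% of all probes had groups that did not (6.24% as higher). The difference of miR-130b was -0.14 ± 0.08, with a 95% confidence interval of -0.31 to 0.04 (limma, Benjamini-Hochberg adjusted p = 0.323). That of miR-130a was -0.06 ± 0.05, with an interval of -0.17 to 0.05 (limma adjusted p = 0.439). That of miR-301a was 0.08 ± 0.09, with an interval of -0.12 to 0.27 (limma adjusted p = 0.602). Without RS_DMSO 3 the miR-301a difference was 0.16, the highest with any 1 array left out, and did not pass. The intervals still hold differences of up to 0.27 for miR-301a and down to -0.31 for miR-130b on the log2 scale. The directions of miR-130a and miR-130b turned without loess, to 0.65 and 0.06.

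The loess step decides what miR-130a shows. Before loess, its log2 ratios were -0.70, -0.72, -0.65 and -0.81 in RS_DMSO, -0.09, -0.0017, -0.17 and -0.02 in RS_Rap, and -0.40, -0.25, -0.31 and -0.38 in RR_Rap. On that scale the 24 h group was highest, the DMSO group lowest, and no 2 groups overlapped. At the brightness of the miR-130a spots loess subtracted a mean of -0.40 in RS_DMSO, 0.32 in RS_Rap and -0.33 in RR_Rap, so at that brightness the correction ran the opposite way in RS_Rap. Whether this trend came from the RNA, the dyes or the scan was not tested.

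Without loess, miR-130a was 0.65 higher after 24 h than in DMSO (limma adjusted p = 2.69e-06). The difference was 0.63 when arrays were centred on the spike-in controls and 0.61 in the authors' deposited log2 values, each past the threshold, and 0.17 from the Hy3 channel alone, which did not pass. Between the resistant line and the 24 h group, its difference of 0.39 turned to -0.27, -0.25 and -0.27 under the first 3 of those settings. From the Hy3 channel alone it was 0.06. Against DMSO the resistant line stayed higher, by 0.23 to 0.39 over 13 other settings, the lowest of them from the Hy3 channel alone, where it was short of the threshold. The negative-control filter, only the groups compared, the unmoderated test and the replicate block leave every difference as it was. No direction could turn under those settings. Without loess many probes moved with miR-130a: 117 probes passed as higher and 1 as lower after 24 h, and the median difference of all probes went from -0.02 to 0.11. Leaving out loess and centring each array on its median instead still left miR-130a at 0.52 after 24 h and at -0.22 between the resistant line and 24 h, a setting chosen after seeing the data.

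miR-130b had differences of 0.55 to 1.69 against DMSO and 0.48 to 2.00 against 24 h over the 13 other settings, and its signal lay below the negative controls in both sensitive groups. Before loess it stood at 0.51 to 0.65 in RR_Rap, -0.27 to 0.10 in RS_DMSO and -0.03 to 0.01 in RS_Rap. RR_Rap 2, the lowest resistant array after loess at 0.07, was the highest before it at 0.65. After 24 h miR-130b did not pass under any setting, and its difference lay between -0.31 and 0.07.

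miR-301a kept its direction under all 13 settings, including those that could not change it, but the size of its differences varied. Against DMSO it fell to 0.50 without loess and 0.44 in the deposited log2 values, both short of the threshold. These lower values rest on RS_DMSO 3, whose value before loess was 0.36 while the other DMSO arrays stood at -0.78 to -0.60. With that array left out, a choice made after seeing the data, the values were 0.76 and 0.70. Nothing is read from whether values in the comparisons with the resistant line pass, since the family was picked on them. Between the resistant line and 24 h of rapamycin miR-301a fell to 0.06 without loess, 0.08 with spike-in centring, 0.03 in the deposited log2 values and 0.27 from the Hy3 channel alone, each short of the threshold. After 24 h it reached 0.42 with spike-in centring, where it passed (limma adjusted p = 0.0153), 0.44 without loess, short of the threshold, and 0.70 without loess and without RS_DMSO 3 (limma adjusted p = 6.00e-05).

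**Figure D3:**
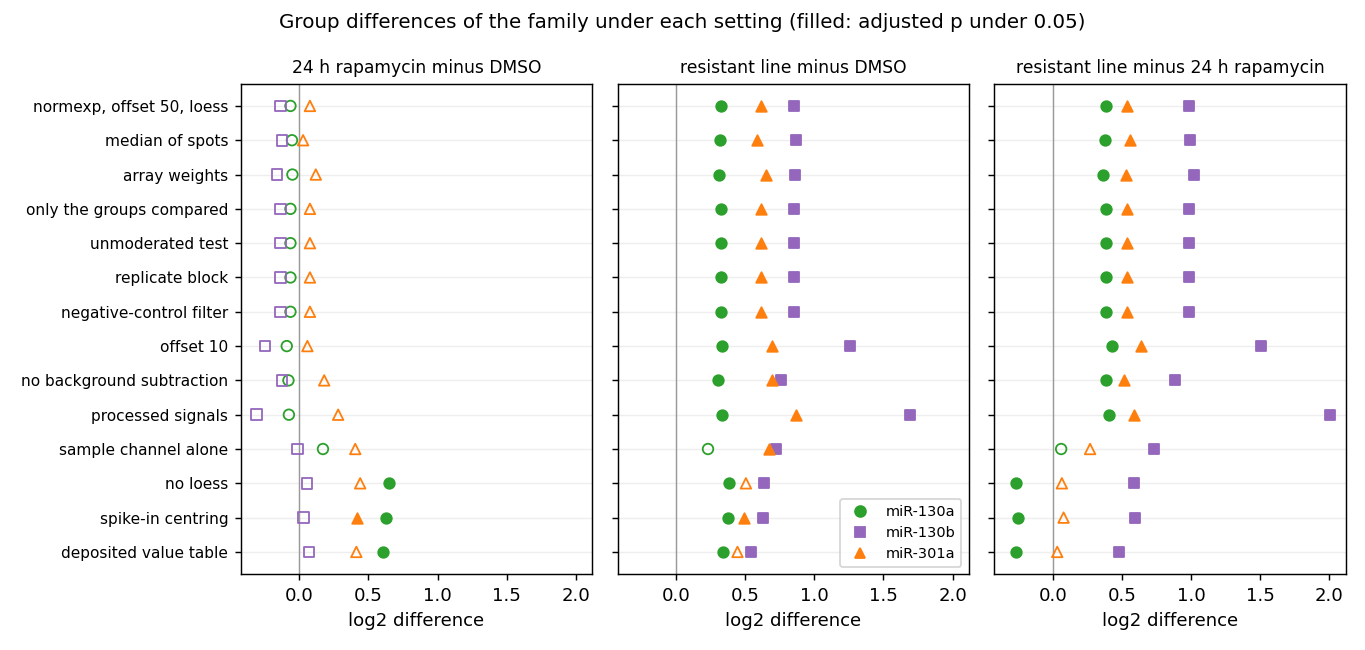
Difference of group means (log2) for each member in the 3 comparisons under the main setting (top line) and 13 others; filled symbols have an adjusted p under 0.05. miR-130b stays to the right of 0 in both comparisons with the resistant line, whereas miR-130a moves from -0.06 to 0.65 after 24 h and from 0.39 to -0.27 between the resistant line and 24 h once loess is left out.

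Over the 12 arrays the Pearson correlation was 0.92 between miR-130a and miR-130b, 0.85 between miR-130a and miR-301a, and 0.84 between miR-130b and miR-301a. Once each group's mean was taken out these values were -0.01, 0.10 and -0.24, so the high correlations describe the groups. All ratios on an array share its pool, scan and loess curve.

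miR-721, with the same seed, and miR-130b*, the passenger strand of the miR-130b hairpin, were the nearest relatives on the array and lay below the negative controls on all 12 arrays. miR-721 is encoded on chromosome 5 within the bounds of Cux1 and shares its first 9 bases with the members (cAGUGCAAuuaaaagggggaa). It stood at 0.09 after 24 h (limma adjusted p = 0.167), where it turned to -0.21 with the processed signals and -0.04 from the Hy3 channel alone. Against DMSO it stood at -0.10 in the resistant line (adjusted p = 0.0692), turning to 0.09 without loess, and passed without background subtraction, with an unmoderated test and without RS_Rap 4. Against 24 h it fell by 0.19 (limma adjusted p = 0.00202), a call lost without loess at -0.02, with spike-in centring at -0.0051, with the processed signals at -0.14 and from the Hy3 channel alone, where it turned to 0.05. At this signal a level of miR-721 in any group was not detectable above the controls. miR-130b* differed by -0.04 in both comparisons with the resistant line and by -0.00048 after 24 h, did not pass in any, and took either sign over the settings.

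The miR-148/miR-152 miRNAs carry a seed shifted by 1 base against the family's, so that 6 bases are in common, and were looked at for that reason.
miR-148b: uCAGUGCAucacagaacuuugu
miR-152: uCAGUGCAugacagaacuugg
miR-148b rose by 0.42 ± 0.11 in the resistant line against DMSO (limma adjusted p = 0.0178), a call lost under 5 other settings, among them without loess at 0.20, and also without RS_DMSO 1 at 0.35 or RR_Rap 3 at 0.40. Against 24 h it stood at 0.17 (adjusted p = 0.297), turning to -0.13 without loess, and passed as higher with only the groups compared (limma adjusted p = 0.00426) and as lower in the deposited log2 values, at -0.20 (limma adjusted p = 0.0498). miR-152 fell by 0.66 ± 0.17 against 24 h (limma adjusted p = 0.0113). Against DMSO it stood at -0.34 (adjusted p = 0.198), and at -0.56 without RS_DMSO 3 (adjusted p = 0.000111). It also passed against DMSO without loess at -0.47, with spike-in centring at -0.48, in the deposited log2 values at -0.51, with the processed signals at -0.64 and with array weights at -0.57. miR-148a lay below the negative controls on all 12 arrays. Against 24 h it stood at 0.10, turning to -0.0012 with the median of spots, and passed without loess at 0.24 and with spike-in centring at 0.25. Against DMSO it stood at -0.04, turning to 0.20 without loess, and did not pass. After 24 h 0 of the 3 passed in the reported fit, at 0.24, 0.32 and -0.14 for miR-148b, miR-152 and miR-148a, the last turning to 0.0033 from the Hy3 channel alone. miR-148b and miR-152 then passed as higher without loess, at 0.33 and 0.46, with spike-in centring, at 0.30 and 0.43, and in the deposited log2 values, at 0.29 and 0.44, and miR-148a passed as lower with the processed signals, at -0.54.

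miR-27a and miR-27b, which repress Pparg, did not pass in any of the 3 comparisons in the reported fit. In the resistant line against DMSO they stood at 0.0017, turning to -0.07 without loess, and at -0.19, turning to 0.20 from the Hy3 channel alone. Against 24 h they stood at -0.11 and -0.29, turning to 0.05 and 0.03 from the Hy3 channel alone, and the latter passed without RS_DMSO 3 (limma adjusted p = 0.0318) or RS_Rap 2 (adjusted p = 0.0346). Both passed as lower without loess, at -0.71 and -0.92, with spike-in centring, at -0.70 and -0.91, and in the deposited log2 values, at -0.74 and -1.04. With array weights both also passed, at -0.12 and -0.31, and miR-27b passed with the negative-control filter, the median of spots and only the groups compared. After 24 h they stood at 0.11 and 0.10, and both passed as higher without loess, at 0.65 and 0.69, with spike-in centring, at 0.62 and 0.67, and in the deposited log2 values, at 0.65 and 0.68.

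The profiles most like those of the members were sought among the 220 mouse probes above the negative controls, less the 3 members, by Pearson correlation of the log2 ratio over the 12 arrays. For miR-130b these were miR-92a (0.975), miR-805 (0.972) and miR-18a (0.969). For miR-130a they were miR-494 (0.960), miR-19a (0.946) and miR-805 (0.937). For miR-301a they were miR-106b (0.967), miR-18a (0.937) and miR-20a (0.933). Each of these 7 miRNAs had a higher ratio in the resistant line in both comparisons. They kept that direction under all 13 other settings, including those that could not change it. The nearest to 0 was miR-494 at 0.080 against 24 h without loess. They were chosen for likeness to members that stood higher in the resistant line on these same arrays. Their shared direction therefore follows largely from the choice and is no separate result. miR-92a, miR-18a, miR-19a and miR-20a belong to the miR-17~92 polycistron, miR-106b to its paralogous cluster. Once each group's mean was taken out, the values were 0.73 for miR-92a, 0.31 for miR-805 and 0.31 for miR-18a with miR-130b. They were 0.76 for miR-494, 0.34 for miR-19a and -0.03 for miR-805 with miR-130a. With miR-301a they were 0.87 for miR-106b, 0.77 for miR-18a and 0.61 for miR-20a. So part of the likeness lay within groups for some of these miRNAs and little of it for others, and all ratios on an array share its pool and normalization.

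Of the muscle miRNAs that mark the line's myogenic side, miR-1 and miR-206 lay above the negative controls in every group and the other 5 skeletal muscle probes did not in any. The summed Hy3 signal of the 7 skeletal muscle probes was 1168 to 1276 in RS_DMSO, 1128 to 1217 in RS_Rap and 865 to 998 in RR_Rap. That of the smooth muscle pair miR-143 and miR-145 was 1208 to 2305, 2545 to 2990 and 342 to 689, lowest in the group in which the family was high. All sums given here are of signals without background subtraction or normalization, so probes below the controls add to them. In the reported fit the resistant line had miR-143 and miR-145 called lower in both comparisons. miR-143 lay above the negative controls in every group, but miR-145 only in RS_Rap. Against DMSO miR-145 was thus compared between groups in which it did not. Against 24 h miR-1 and miR-206 were called lower and miR-208 higher, and against DMSO no skeletal muscle probe was called. Over markers of other cells, 0 of 5 epithelial and 0 of 2 endothelial probes stood above the negative controls in any group. Of 4 neuronal probes miR-9 did so in RS_Rap and RR_Rap, and of 5 blood-cell probes miR-150 did in all groups and miR-142-3p in RS_Rap and RR_Rap. The neuronal miR-124, not above the controls in any group, was called lower in the resistant line in both comparisons. miR-142-3p was called higher against 24 h, and no other probe of these lists was called. Summed signals of the epithelial list were 548 to 941, 519 to 546 and 541.5 to 568.5, and of the endothelial list 240 to 306, 223 to 233 and 241 to 246, in the order RS_DMSO, RS_Rap and RR_Rap. They were 469 to 492, 428 to 458 and 459 to 484 for the neuronal list and 622 to 795, 580 to 607 and 613 to 671 for the blood-cell list, in the same order. Their part in the family's differences was not tested, and in RNA from whole cultures a change in the share of cells cannot be told apart from a change of RNA per cell.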

How the data were processed

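The spot intensity values were made by the authors with Agilent Feature Extraction 9.5.3.1, per the submitters' processing notes and the file headers, and are not normalized: mean signals of both channels and the median local background. The deposited log2 table has no stated scale. Set against the scanner values of each array it tracked the unnormalized log2 ratio of Hy3 to Hy5 (r 0.977 to 0.9998, slope 0.987 to 1.01), which makes it a ratio of sample to pool. Its array medians were 0.393 to 0.604, so it is not centred, and the sources used here do not say how spots were summarised. It served as an alternative only. No sample column was left unused.

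In limma 3.58.1 (R 4.3.3) background was corrected by normexp with an offset of 50, which shrinks changes of dim probes towards 0. Loess within arrays gave control spots no weight. Up to 4 unflagged spots per probe were averaged, and 1 spot of the family was left out. One fit (lmFit and eBayes) to all 12 arrays gave 3 contrasts, adjusted by Benjamini-Hochberg over 417 probes with a threshold of 0.05; the filter on flagged signal removed none. Above the negative controls means that a probe's Hy3 signal exceeded the highest of 7 such probes on at least 3 arrays of a group, as 220 did. The fit was tested on simulated data. The number of arrays limits the precision.

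Members and lists were chosen with earlier results of these data known. Named are all members, probes of the same seed and passenger strands, the miR-148/152 list, the Pparg list and the 3 most similar probes per member. One further planned list is not reported here. Names follow the array's own annotation. All 3 members matched RefSeq mature sequences.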

Additional observations from a re-analysis of the deposited data

Results flagged for a closer look

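Within-group spread was looked at for the 3 members and 7 related miRNAs in each group, 30 groups of 4 arrays, of which chance alone sets apart about 1 in 20. In 2 of them 1 array stood far from the rest by Dixon's ratio at the 95% level. miR-130b in RS_Rap replicate 1 was at -0.72, with the other 3 arrays at -0.64 to -0.62 (ratio 0.845). miR-130b* in RR_Rap replicate 3 was at -0.13, with the others at -0.01 to 0.0034 (ratio 0.895), in a probe below the negative controls.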

How the results depend on the processing

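Beside the values reported, the settings tried were an offset of 10, no background subtraction, the processed signals, no loess, the Hy3 channel alone, spike-in centring, the value table, the negative-control filter, the median of spots, array weights, only the groups compared, an unmoderated test and the replicate number as a block. Slide as a block was not run, because each slide holds 1 array. The replicate numbers do not pair the samples: over 12 same-numbered pairs the correlation of deviations was -0.114 to 0.152 and 0 of 12 arrays correlated best with its own number. With the replicate block 20, 89 and 113 probes passed, in place of 14, 97 and 120, for 24 h against DMSO, resistant against DMSO and resistant against 24 h.

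With any 1 array left out, the resistant line differed from DMSO by 0.30 to 0.35 for miR-130a, 0.81 to 0.94 for miR-130b and 0.57 to 0.69 for miR-301a, and from 24 h by 0.36 to 0.42, 0.94 to 1.07 and 0.48 to 0.58, values given as a description since the family was picked on them. After 24 h 0 of 3 members passed. The count after 24 h then ran from 4 (without RS_DMSO 2) to 34 (without RS_DMSO 4), with 26 without RS_DMSO 3, 8 without RS_Rap 1, 5 without RS_Rap 4 and 9 without RR_Rap 1. The count of 14 became 49 without background subtraction, 35 with the processed signals, 118 without loess, 2 from the Hy3 channel alone, 128 with spike-in centring, 111 in the value table, 33 with the median of spots and 5 with only the groups compared. The Hy3 channel alone gave 54 against DMSO and 56 against 24 h for the resistant line, and array weights gave 183 for the latter. The splits into higher and lower, 7 and 7, 54 and 43, and 63 and 57, became 117 and 1, 74 and 28, and 21 and 100 without loess, 123 and 5, 44 and 39, and 26 and 107 with spike-in centring, 105 and 6, 32 and 44, and 15 and 121 in the value table, 14 and 21, 47 and 54, and 41 and 47 with the processed signals, and 38 and 16 for the resistant line against DMSO from the Hy3 channel alone. Without loess the median of all probes was 0.11 after 24 h and 0.11 for the resistant line against DMSO; with the processed signals it was -0.13 for both.

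Members that passed as higher after 24 h numbered 1 without loess, 2 with spike-in centring, 1 in the value table, 2 without loess or in the value table when RS_DMSO 3 was also left out, and 1 without loess after centring on the array median. The settings that leave out RS_DMSO 3 or centre on the median were chosen after seeing the data. For the resistant line against 24 h 1 member passed as higher without loess, from the Hy3 channel alone, with spike-in centring, in the value table and after median centring. In each of these settings except the Hy3 channel alone, 1 member, miR-130a, passed as lower. Nothing is read from those counts, since the family was picked on this comparison.

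The directions that reversed after 24 h were these. miR-130a stood at 0.65 without loess, 0.17 from Hy3 alone, 0.63 with spike-in centring and 0.61 in the value table, at 0.67 and 0.65 without loess and in the value table when RS_DMSO 3 was left out, and at 0.52 with median centring. miR-130b stood at 0.056, 0.032 and 0.069 without loess, with spike-in centring and in the value table, and at 0.11 and 0.050 without loess and in the value table when RS_DMSO 3 was left out. miR-721 stood at -0.21 with the processed signals and -0.045 from Hy3 alone, and miR-148a at 0.0033 from Hy3 alone. miR-130b* stood at 0.029 with an offset of 10, 0.060 without loess, 0.0037 from Hy3 alone, 0.036 with spike-in centring and 0.00013 with array weights. With 1 array left out miR-130b* ran from -0.026 to 0.042 and miR-27b from -0.0075 to 0.17.

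Between the resistant line and 24 h, miR-130a stood at -0.27, -0.25 and -0.27 without loess, with spike-in centring and in the value table and at -0.22 with median centring. miR-148b stood at -0.13, -0.12 and -0.20 in those 3 settings and -0.053 from Hy3 alone. miR-130b* stood at 0.087 with the processed signals, 0.11, 0.12 and 0.015 in those 3 settings and 0.030 from Hy3 alone. miR-148a stood at -0.0012 with the median of spots. From Hy3 alone miR-27a stood at 0.054, miR-27b at 0.028 and miR-721 at 0.046.

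Between the resistant line and DMSO, miR-130b* stood at 0.17 without loess, 0.16 with spike-in centring and 0.034 from Hy3 alone, and miR-721 at 0.089, 0.076 and 0.0015 in the same order. miR-148a stood at 0.20, 0.19 and 0.070 in that order, 0.046 without background subtraction and 0.027 in the value table. miR-27a stood at -0.066 without loess, -0.079 with spike-in centring, -0.083 in the value table, -0.028 with the median of spots and -0.089 with array weights, and miR-27b at 0.20 from Hy3 alone. With 1 array left out miR-148a ran from -0.066 to 0.0075 and miR-27a from -0.10 to 0.052. Members past the threshold against DMSO numbered 2 without loess, in the value table and after median centring, where miR-301a fell short, and 2 from Hy3 alone, where miR-130a did. Nothing is read from these counts either, since the family was picked on this comparison. The cause of these reversals was not tested. Weak signal limits miR-130b in sensitive cells and miR-721, miR-148a and miR-130b* in all groups, where they lay below the negative controls.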
